A study of Mus musculus with 20 samples.

Results

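The 28 genes described here encode the sterol synthesis pathway and the machinery that controls it, out of 46078 genes listed for each library. They were chosen by name and role, with earlier results of these data known. Shares of the set printed beside those of all genes therefore describe the set and are no test of it. The set holds 6 enzymes that turn acetyl-CoA into isopentenyl units, 3 of the isoprenoid branch, 3 that carry squalene to lanosterol, 8 that carry lanosterol to cholesterol, 7 genes of SREBP control, and Stard4, a sterol carrier. The set is not the whole pathway. All 28 genes passed the filter on low counts in every comparison.

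RNA was taken from the brains of wild-type male C57BL/6J mice aged 18 months, 7 weeks after DH stroke, in which occlusion of the distal middle cerebral artery is combined with hypoxia. All animals carried the stroke. Beginning 1 week after it, they received subcutaneous injections 3 times per week for 6 weeks, either of PBS (vehicle) or of 4 g/kg HPBCD (2-hydroxypropyl-β-cyclodextrin, a ring of glucose units that binds cholesterol and other lipophilic molecules). The peri-infarct region, next to the lesion, and the contralateral hemisphere were sequenced in each treatment, which gave 4 groups of 5 libraries: vehicle contralateral, vehicle peri-infarct, HPBCD contralateral and HPBCD peri-infarct. No uninjured animals were among the groups. The treatment of each library rests on its label and on a file name that gives the same treatment. No transcript marks exposure to HPBCD, and these data cannot show whether the vehicle and HPBCD labels were exchanged. If they were, the sign of every treatment difference and of the interaction would turn, and each value given below for one treatment would belong to the other.

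Cholesterol hardly crosses the blood-brain barrier, so the brain makes its own, largely for myelin and for the membranes of neurons and glia. Synthesis is set by SREBP transcription factors. SREBP-2, from Srebf2, drives mainly sterol genes, and SREBP-1, from Srebf1, mainly fatty acid genes. When sterols are low, the escort protein SCAP carries the SREBP precursor to the Golgi, where the site-1 and site-2 proteases (Mbtps1 and Mbtps2) release the active factor. When sterols are high, INSIG proteins hold SCAP in the endoplasmic reticulum. Srebf1 is in addition a target of the liver X receptors, which oxysterols activate.

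Libraries held 14445021 to 22171627 counts in genes, with a median of 19008532, and a floor of 3 counts corresponded to 0.135 to 0.208 CPM (counts scaled to library size). Library 4 of HPBCD contralateral stood apart: 9.5% of its read pairs fell in no gene and 8.03% were ambiguous between genes, against 4.39 to 5.86% and 3.94 to 4.16% in the other 19 libraries. Whether it was counted with the same strand setting is not given in the sources used here. Library 1 of vehicle contralateral also stood apart, with summed markers of striatal neurons at 1847 CPM against 118.6 to 184 CPM in the other 9 contralateral libraries. In library 3 of HPBCD contralateral, summed markers of the choroid plexus were at 614.6 CPM against 1.20 to 7.63 CPM in the other 9. Counts of the 28 genes that passed are given with and without these libraries, which were singled out after seeing the data. Neuron, astrocyte and oligodendrocyte markers were abundant in every library.

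The sequences before the gene starts show what the set shares beyond its role, and they matter here because SREBP binds a short DNA element, the sterol regulatory element, beside the factors NF-Y and Sp1. RefSeq promoters (GRCm38.p6, the build of the files) were found for 24 of the 28 genes. Stard4, Sqle, Fdft1 and Fdps were not matched. In the 250 bases before the start, on both strands, the sterol regulatory element letters TCACNCCA were found in 3 of 24 promoters (12.5%), those of Hmgcs1, Msmo1 and Srebf2, against 3.59% of 27025 mouse promoters. The NF-Y letters CCAAT were found in 19 (79.2%) against 34.5%. The Sp1 letters GGGCGG were found in 18 (75%) against 33.0%, and the E-box letters CACGTG, which SREBP can also bind, in 4 (16.7%) against 6.04%. A match describes letters, not a bound site, and a promoter without one may use other letters or lie outside the window.

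The stretches below are shown because Hmgcs1, Srebf2 and Msmo1 hold the sterol regulatory element letters and Insig1, the gene of the set furthest below its contralateral level, holds the E-box letters. They are printed 5′ to 3′ on the gene's strand, with every match to the 4 motifs in capitals, and hold only bases before the start of the gene in both RefSeq and GENCODE. For Msmo1, whose match lies past the GENCODE start, only the 26 bases around it are given. ATTGG and CCGCCC are CCAAT and GGGCGG read on the opposite strand.
Hmgcs1, chr13:119690171-119690350, plus strand: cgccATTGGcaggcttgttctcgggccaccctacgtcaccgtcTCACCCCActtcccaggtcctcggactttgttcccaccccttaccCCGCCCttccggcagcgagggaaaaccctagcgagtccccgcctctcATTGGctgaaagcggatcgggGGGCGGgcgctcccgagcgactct
Srebf2, chr15:82147089-82147180, plus strand: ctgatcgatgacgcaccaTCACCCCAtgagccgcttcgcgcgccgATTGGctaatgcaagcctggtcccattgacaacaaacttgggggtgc
Msmo1, chr8:64733732-64733757, minus strand: tcTCACTCCAtccgcgcagCCAATga
Insig1, chr5:28071232-28071362, plus strand: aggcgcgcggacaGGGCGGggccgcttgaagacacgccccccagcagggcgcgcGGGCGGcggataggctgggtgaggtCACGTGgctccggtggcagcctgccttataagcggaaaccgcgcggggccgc
In Hmgcs1 the sterol regulatory element began 137 bases before the RefSeq start, with NF-Y letters on both sides of it at 176 and 45 bases. In Srebf2 it began 162 bases before the start and in Msmo1 177 bases before, each followed by NF-Y letters at 135 and 160 bases. The E-box letters of Insig1 began 101 bases before its start. None of the 4 motifs overlapped another in these stretches.

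Per kilobase of exon, Hmgcs1, which makes HMG-CoA, was the most abundant of the 28 transcripts, with a mean over the 20 libraries of 75.9 CPM per kb. Pmvk (phosphomevalonate kinase) followed at 31.5, Insig1 at 28.2 and Srebf2 at 24.8 CPM per kb. At the other end stood Tm7sf2, a sterol reductase, at 2.23, Idi1, which isomerises isopentenyl diphosphate, at 1.72 and Fdps, which makes farnesyl diphosphate, at 0.174 CPM per kb. Fdps held only 3 to 25 counts per library, and 1124 bases of its exons overlap Gm43738 on the same strand, so its values are uncertain. The median coefficient of variation of the 28 genes between libraries of a group was 9.20 to 13.3%. Exons of 11 of the 28 genes overlap another gene, 8 of them on the opposite strand, and the strand setting of the counting is not given in the sources used here.

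**Figure D1:**
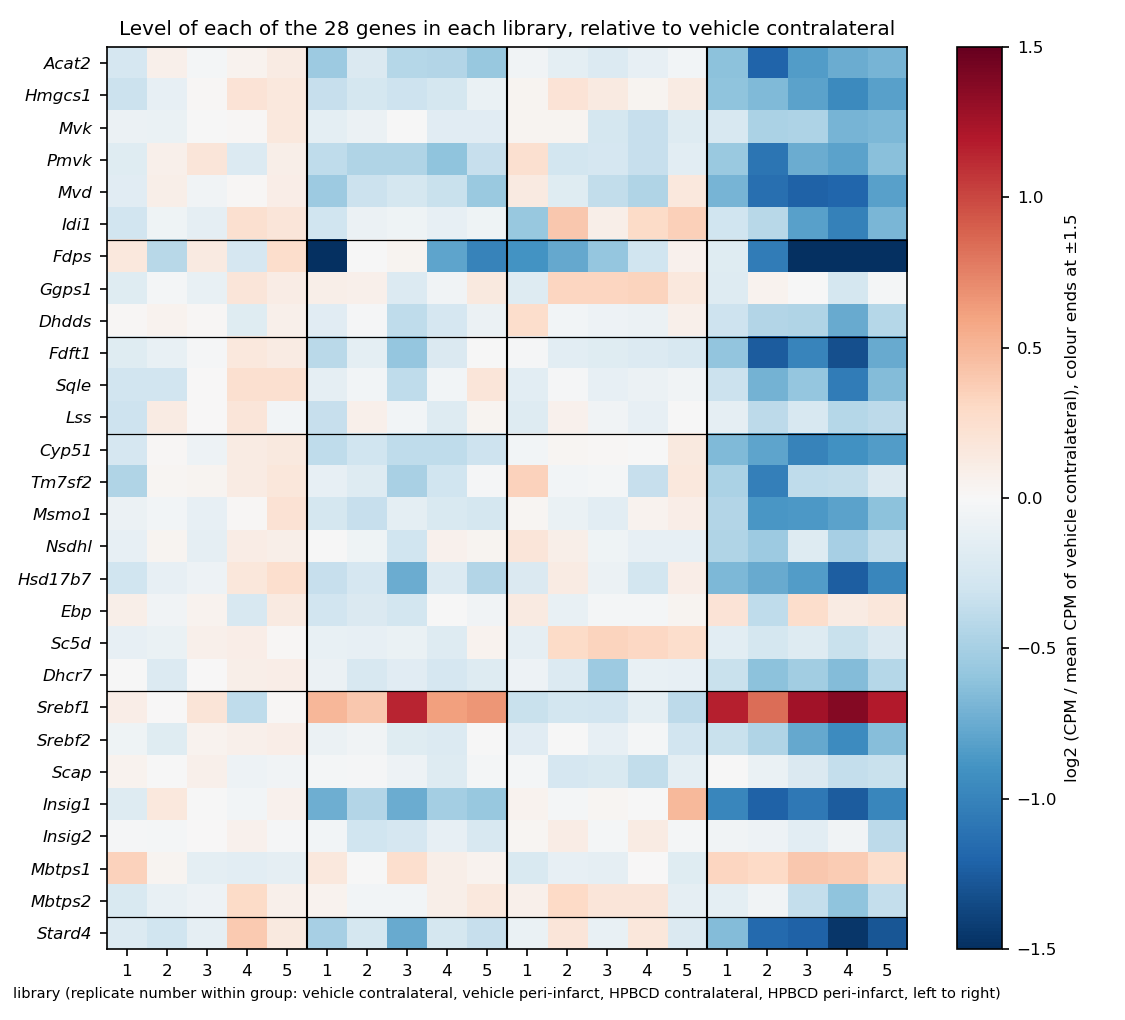
Level of each of the 28 genes (rows, ordered by role with lines between roles) in each of the 20 libraries (columns, replicate number within each group), as log2 of CPM over the mean of vehicle contralateral, with colour ending at ±1.5. HPBCD peri-infarct libraries are blue in most rows, with 24 or 25 of the 28 genes below the vehicle contralateral mean in each, while the Srebf1 row is red in all peri-infarct libraries.

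Summed over the 28 genes, expression was lowest in the peri-infarct libraries labelled HPBCD, a place that would fall to vehicle peri-infarct if the labels were exchanged. The sum was 1816 ± 121 CPM in vehicle contralateral, 1618 ± 57 in vehicle peri-infarct, 1799 ± 35 in HPBCD contralateral and 1325 ± 92 in HPBCD peri-infarct (SD, n = 5 each). Without library 1, vehicle contralateral averaged 1857 ± 91 CPM, and without library 3 or 4, HPBCD contralateral averaged 1807 ± 34 and 1805 ± 37 CPM (SD, n = 4). HPBCD peri-infarct libraries ran from 1225 to 1475 CPM, below every library of the other groups, of which the lowest was at 1567. Taken per library, the median log2 difference of the genes from the vehicle contralateral mean was -0.07 to -0.25 in vehicle peri-infarct and -0.32 to -0.74 in HPBCD peri-infarct. In HPBCD contralateral it was -0.01 to -0.08, and the vehicle contralateral libraries themselves spanned -0.16 (library 1) to 0.11, which overlapped the range of vehicle peri-infarct. The decrease in the sum was carried by enzymes: the 6 genes from acetyl-CoA to isopentenyl units summed to 571 ± 23 CPM in HPBCD contralateral and 326 ± 28 in HPBCD peri-infarct. Most of that sum and of its decrease was Hmgcs1 alone, at 93.4 CPM per kb in HPBCD contralateral and 51.0 in HPBCD peri-infarct. The 7 genes of SREBP control summed to 569 ± 10 and 564 ± 25, with Srebf1 and Mbtps1 higher and Srebf2 and Insig1 lower.

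The first comparison asked how the peri-infarct region differed from the contralateral hemisphere in vehicle-treated mice. Of the 28 genes, 6 enzymes or regulators of sterol synthesis were lower, 1 gene was higher and 21 did not pass the test. Lower were Acat2, Pmvk and Mvd, which act before isopentenyl diphosphate, Cyp51 and Msmo1, which remove methyl groups from lanosterol, and Insig1. Srebf1 was the gene that was higher. With edgeR's quasi-likelihood test and Benjamini-Hochberg adjustment over 15801 genes, 9.70% of all genes were called lower and 10.5% higher, so 6 of 28 lower (21.4%) stood above that background and 1 of 28 higher (3.57%) below it. The median log2 difference was -0.17 for the 28 genes and 0.01 for all genes.

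Insig1, which retains SCAP and is itself an SREBP target, had the largest called decrease. It was at 95.2, 120.8, 108, 105 and 113 CPM in vehicle contralateral libraries 1 to 5 and at 65.2, 79.9, 64.9, 76.2 and 73.0 CPM in vehicle peri-infarct. Every peri-infarct library was below every contralateral one. The log2 difference was -0.58 ± 0.08 (SE), or 1.5-fold lower (adjusted p = 0.00175). Insig2, its paralog, was at 38.2 to 40.6 CPM in vehicle contralateral and 31.7 to 37.9 in vehicle peri-infarct, a log2 difference of -0.18 ± 0.07 that missed the threshold (adjusted p = 0.0843) although the libraries did not overlap.

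Srebf1 went the other way. It was at 74.0, 69.2, 78.6, 52.7 and 69.7 CPM in vehicle contralateral and at 97.6, 91.0, 151, 105 and 109 CPM in vehicle peri-infarct. The groups did not overlap, and peri-infarct library 3 was the highest of them. The log2 difference was 0.70 ± 0.14, or 1.62-fold higher (adjusted p = 0.00795). Srebf2 did not differ detectably: it was at 179 to 217 CPM in vehicle contralateral and 176 to 202 in vehicle peri-infarct (log2 difference -0.10 ± 0.07, adjusted p = 0.364).

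Among the enzymes, Cyp51 (lanosterol 14α-demethylase) was at 79.6, 96.1, 89.8, 103.7 and 105.5 CPM in vehicle contralateral and at 73.0, 77.4, 73.1, 72.9 and 76.8 CPM in vehicle peri-infarct. Its peri-infarct libraries were all lower and lay close together (log2 difference -0.34 ± 0.08, adjusted p = 0.0118). Pmvk was 58.1 to 75.6 CPM against 44.0 to 52.6 (-0.43 ± 0.08, adjusted p = 0.00607), and Mvd, mevalonate diphosphate decarboxylase, 20.4 to 24.6 CPM against 15.6 to 19.0 (-0.39 ± 0.09, adjusted p = 0.0128). Neither pair of ranges overlapped. For Acat2, which joins acetyl-CoA units, the ranges of 30.6 to 39.5 and 24.6 to 31.3 CPM overlapped, with a difference of -0.42 ± 0.09 (adjusted p = 0.00915). Msmo1 passed narrowly (-0.24 ± 0.07, adjusted p = 0.0427): 9 of the 10 fits that left out 1 library lost its call, all but the one without vehicle peri-infarct library 3, and with a block for the replicate number its adjusted p was 0.0703. Libraries did not overlap for 6 genes that were lower and 1 that was higher, against 7.42% and 6.23% of all genes. Without vehicle contralateral library 1, 9 of the 28 genes passed, beside 19.2% of 16018 genes, and the median of the 28 was -0.16.

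**Figure D2:**
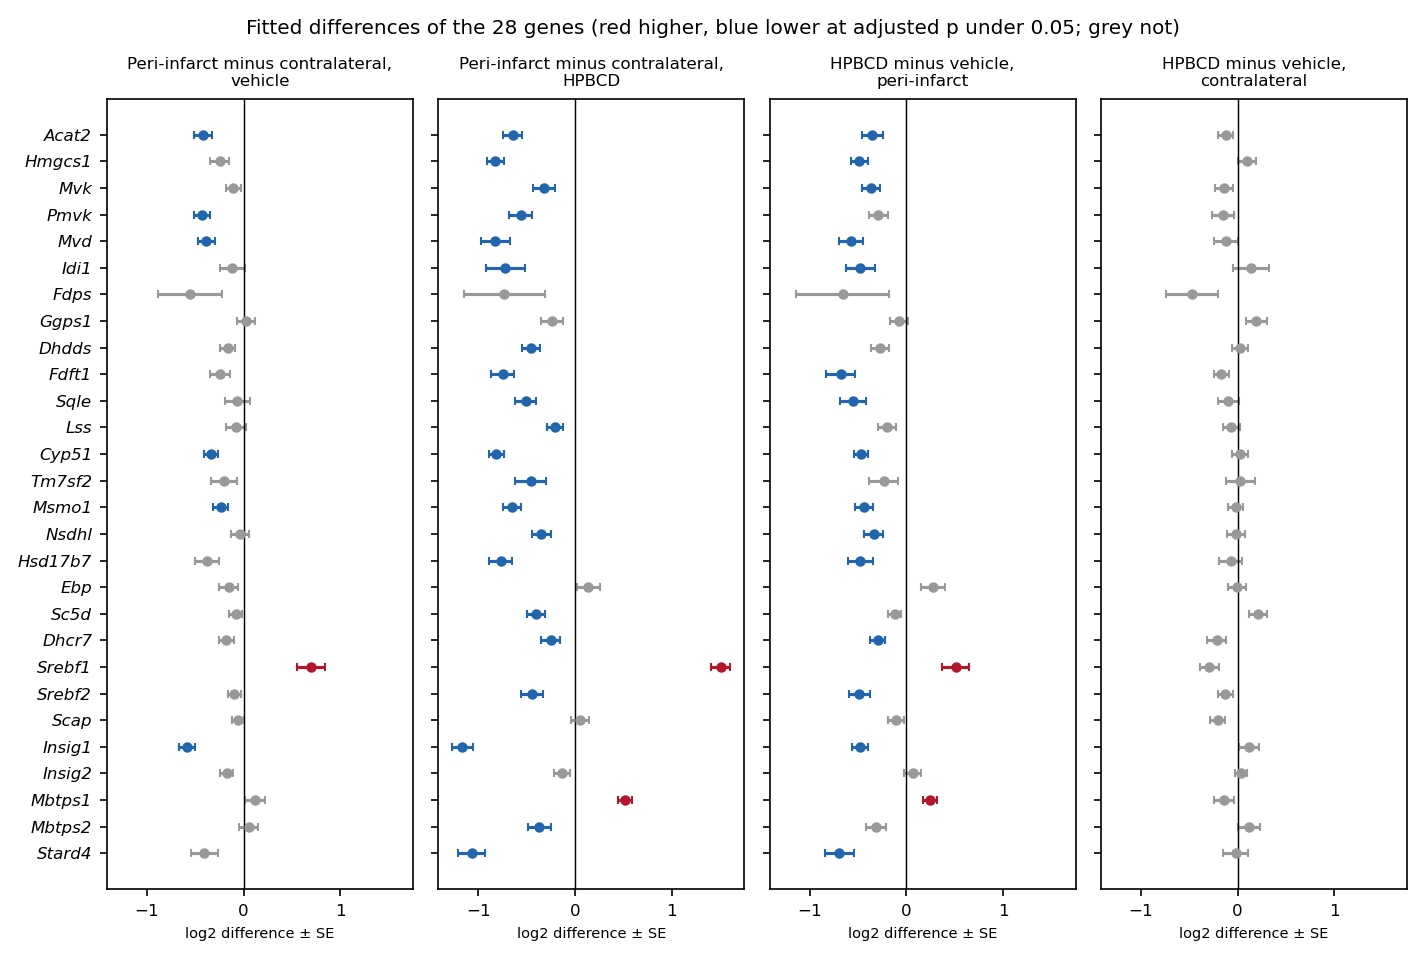
Fitted log2 difference ± SE of each of the 28 genes (rows) in 4 comparisons of 2 groups with 5 libraries each. Coloured points have an adjusted p under 0.05: 6 lower and 1 higher between regions in vehicle, 21 lower and 2 higher between regions in HPBCD, 15 lower and 2 higher between treatments in the peri-infarct region, and none between treatments in the contralateral hemisphere.

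The same comparison of regions in libraries labelled HPBCD gave larger differences through most of the pathway. Of the 28 genes, 21 (75%) were lower in the peri-infarct region and 2 (7.14%), Srebf1 and Mbtps1, were higher. Over all 16047 genes tested, 24.3% were lower and 30.3% higher. All 6 genes from acetyl-CoA to isopentenyl units were lower, as were all 3 from squalene to lanosterol and 7 of the 8 from lanosterol to cholesterol. The exceptions by the test were Ebp (sterol isomerase), Fdps, Ggps1 (geranylgeranyl diphosphate synthase), Insig2 and Scap. The median log2 difference of the 28 genes was -0.46, beside 0.03 for all genes. Libraries did not overlap for 16 genes that were lower and 2 that were higher, beside 20.5% and 22.5% of all genes. Without HPBCD contralateral library 4, 21 of the 28 genes passed, beside 50.9% of all genes, and without library 3 of that group 22 did, beside 51.4%. The medians of the 28 were then -0.50 and -0.48.

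At the head of the pathway, Hmgcs1 was at 408.3, 460.2, 437, 408.2 and 432 CPM in HPBCD contralateral and at 262, 250.4, 228, 205 and 226 CPM in HPBCD peri-infarct. The gap between the groups was wider than the spread of either. It was 1.77-fold lower (log2 difference -0.82 ± 0.09, adjusted p = 9.79e-06). Mvd was 1.77-fold lower as well (16.7 to 25.6 CPM against 9.87 to 14.2, -0.82 ± 0.15, adjusted p = 0.000447). Acat2 (-0.64 ± 0.10), Pmvk (-0.56 ± 0.12), Idi1 (-0.72 ± 0.20) and Mvk, mevalonate kinase (-0.32 ± 0.11), completed the group, and the libraries of Mvk and Idi1 overlapped.

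Next along the pathway, Fdft1 (squalene synthase) was at 93.7, 84.9, 84.1, 82.4 and 80.5 CPM in HPBCD contralateral and at 63.0, 40.0, 47.8, 38.1 and 56.4 CPM in HPBCD peri-infarct. All peri-infarct libraries were lower, with a wide spread among them (-0.75 ± 0.12, adjusted p = 0.000216). Exons of Fdft1 overlap Ctsb on the opposite strand over 774 bases. Sqle, squalene epoxidase, was 51.5 to 56.9 CPM against 27.8 to 45.9 (-0.51 ± 0.11, adjusted p = 0.0014). Lss, lanosterol synthase, differed least of the 3 (-0.20 ± 0.08, adjusted p = 0.0475), and its call was lost in 7 of 10 fits that left out 1 library and with the replicate block (adjusted p = 0.0765).

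Past lanosterol, Cyp51 was at 92.3, 96.5, 96.2, 94.6 and 105.1 CPM in HPBCD contralateral and at 59.8, 55.1, 47.5, 50.8 and 53.1 CPM in HPBCD peri-infarct. It had the smallest adjusted p of the enzymes (-0.81 ± 0.08, adjusted p = 3.96e-06). Msmo1 was at 99.3, 90.5, 86.7, 100.5 and 104.0 CPM against 71.6, 53.1, 53.5, 55.4 and 63.2 CPM, again without overlap (-0.65 ± 0.09, adjusted p = 8.23e-05). Hsd17b7, a 3-ketosteroid reductase of the demethylation steps, was 24.3 to 32.0 CPM against 12.5 to 18.5 (-0.77 ± 0.12, adjusted p = 0.000156). Other enzymes of this stretch had estimates closer to 0: Sc5d, a sterol desaturase, differed by -0.40 ± 0.09, Nsdhl, the decarboxylating dehydrogenase, by -0.35 ± 0.10, and Dhcr7, which catalyses a last reduction step, by -0.25 ± 0.10 (adjusted p = 0.0493, and 0.0521 with the replicate block). Tm7sf2 differed by -0.46 ± 0.16 (adjusted p = 0.0277). Leaving out 1 library in turn ended the call of Dhcr7 in 8 of 10 fits and those of Tm7sf2 and Mvk in 4 of 10. Dhcr7 also did not pass with limma-voom, with upper quartile factors or with at least 10 counts in every library. Tm7sf2 did not pass with limma-voom. Ebp was 14.7 to 17.4 CPM against 12.2 to 19.0, a difference of 0.14 ± 0.11 that did not pass (adjusted p = 0.323).

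In the isoprenoid branch, Dhdds, which builds dolichol chains, was lower (55.1 to 70.5 CPM against 34.6 to 47.2, -0.46 ± 0.10, adjusted p = 0.00151). Ggps1 was 23.9 to 34.3 CPM against 22.7 to 28.2, which overlapped (-0.24 ± 0.11, adjusted p = 0.0992). Stard4, which moves cholesterol between membranes, was at 32.4, 39.4, 32.1, 39.1 and 29.9 CPM in HPBCD contralateral and at 22.1, 15.5, 15.0, 12.6 and 14.3 CPM in HPBCD peri-infarct. Library 1 was the highest of the peri-infarct group and still below all contralateral ones (2.10-fold lower, -1.07 ± 0.14, adjusted p = 4.21e-05).

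The control genes split by paralog in this comparison. Insig1 was at 113, 106.5, 110.7, 108 and 152 CPM in HPBCD contralateral and at 55.2, 46.6, 51.6, 45.7 and 55.0 CPM in HPBCD peri-infarct, 2.24-fold lower without overlap (-1.17 ± 0.11, adjusted p = 2.44e-06). Insig2 was 38.1 to 42.4 CPM against 29.6 to 37.6, ranges that were only narrowly apart in CPM, which are scaled otherwise than the fit. Its log2 difference of -0.13 ± 0.09 did not pass (adjusted p = 0.21). Srebf1 was at 54.8, 57.0, 56.5, 62.1 and 52.4 CPM against 154, 123, 165, 178 and 158 CPM. The groups lay far apart, and no other gene of the set was higher by as much (2.85-fold higher, 1.51 ± 0.10, adjusted p = 4.96e-07). Exons of Srebf1 overlap Rai1 on the opposite strand over 109 bases. Srebf2 was at 181, 203, 187, 198 and 166 CPM against 160.7, 148, 120, 106 and 130.2 CPM, 1.36-fold lower without overlap (-0.44 ± 0.12, adjusted p = 0.00587).

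The SREBP proteases differed in opposite directions. Mbtps1 was at 71.2, 76.7, 76.1, 83.8 and 73.4 CPM in HPBCD contralateral and at 104.7, 103, 111, 108 and 99.95 CPM in HPBCD peri-infarct, higher without overlap (0.52 ± 0.07, adjusted p = 8.3e-05). Mbtps2 was 23.7 to 32.0 CPM against 17.1 to 25.1 (-0.37 ± 0.12, adjusted p = 0.0198), with 2867 of its exon bases shared with Yy2 on the same strand, and without HPBCD contralateral library 2 its adjusted p reached 0.0509. Scap, the escort, was 55.4 to 70.4 CPM against 56.0 to 71.2, with a difference of 0.05 ± 0.09 (adjusted p = 0.643). Side by side per kilobase, the ratio of Srebf1 to Srebf2 was 0.435 ± 0.075 in vehicle contralateral, 0.754 ± 0.191 in vehicle peri-infarct, 0.386 ± 0.017 in HPBCD contralateral and 1.55 ± 0.43 in HPBCD peri-infarct (SD, n = 5 each). In HPBCD peri-infarct it was above 1 in all 5 libraries (1.06 to 2.15), and of the other libraries only vehicle peri-infarct library 3, at 1.08, passed 1. The ratio of Insig1 to Insig2 was 3.14 ± 0.31, 3.32 ± 0.67 and 2.38 ± 0.33 in vehicle contralateral, HPBCD contralateral and vehicle peri-infarct, and 1.64 ± 0.28 in HPBCD peri-infarct. Without the contralateral libraries that stood apart, the contralateral ratios were 0.383 to 0.423 for the first pair and 3.22 to 3.44 for the second. These ratios were chosen after the values were seen and carry no test.

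**Figure D3:**
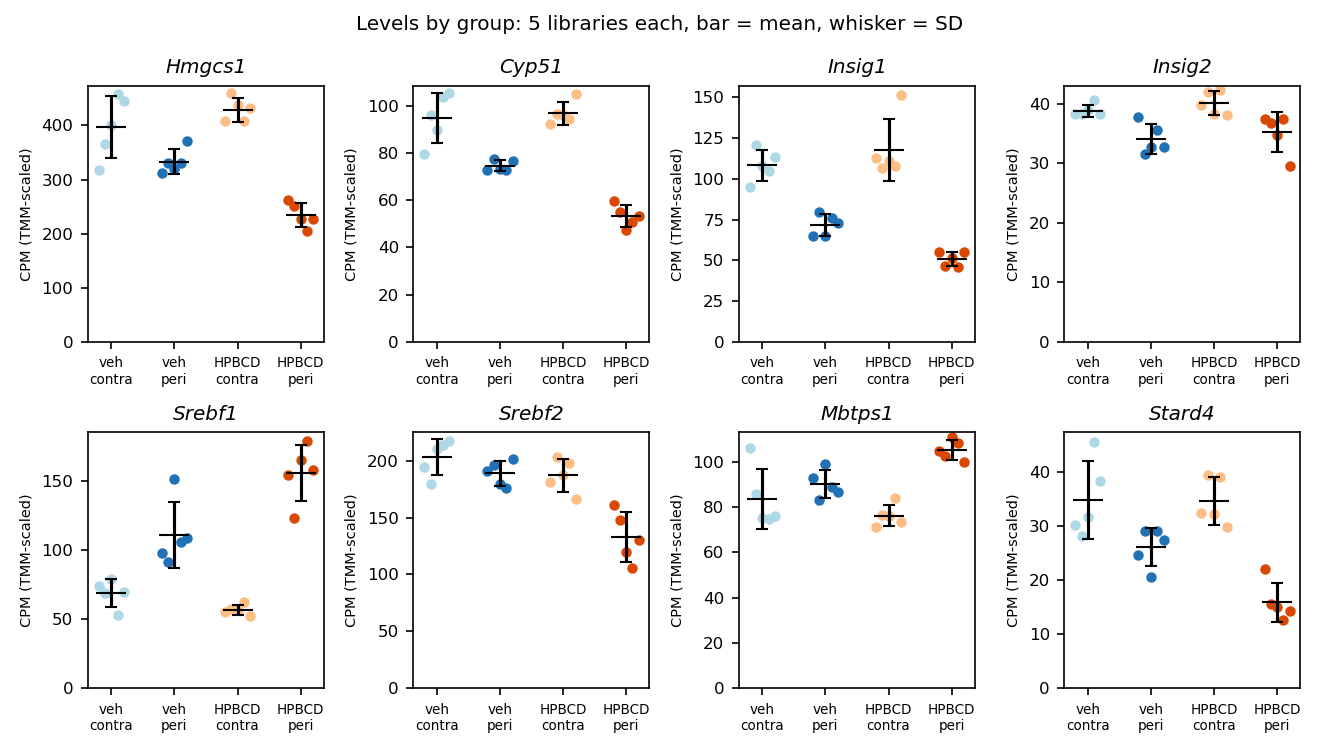
CPM of 8 genes in the 4 groups (veh, vehicle; contra, contralateral; peri, peri-infarct), with 1 point per library, the mean as a bar and the SD as a whisker (n = 5). Hmgcs1, Cyp51, Insig1, Srebf2 and Stard4 are lowest in HPBCD peri-infarct, Srebf1 and Mbtps1 are highest there, and Insig2 spans 29.6 to 42.4 CPM over all libraries.

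Markers of cell types moved with these differences. Fewer cells of a type and less RNA per cell cannot be told apart in bulk tissue. The 8 neuron markers (Rbfox3, Snap25, Syt1, Tubb3, Stmn2, Map2, Syp and Eno2) summed to 9578 to 11220 CPM in vehicle contralateral, 5952 to 8405 in vehicle peri-infarct, 11280 to 12200 in HPBCD contralateral and 3215 to 6063 in HPBCD peri-infarct. Lower between regions were 3 of 8 in vehicle (median log2 difference -0.28) and 8 of 8 in HPBCD (-0.93). Neuron markers thus differed in the same direction as the sterol genes and by more at the median in both treatments. The 10 oligodendrocyte markers differed in the other direction: none passed the test in vehicle (median 0.14) and 10 of 10 were higher in HPBCD peri-infarct (median 1.18), where they summed to 13020 to 19460 CPM against 5911 to 7419 in HPBCD contralateral.

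The 8 astrocyte markers summed to 7026 to 8687 CPM in HPBCD contralateral and 7490 to 9115 in HPBCD peri-infarct, ranges that overlapped, with 4 of 8 genes higher and none lower. The 6 reactive astrocyte markers and the 9 microglia and macrophage markers were higher in the peri-infarct region in both treatments, 6 of 6 and 9 of 9, with medians of 3.05 and 1.35 in vehicle and 4.71 and 2.07 in HPBCD. Fibroblast and meningeal markers were higher in 1 of 5 in vehicle (median 1.15) and 5 of 5 in HPBCD (median 4.05). Markers of oligodendrocyte precursors were higher in 3 of 4 and 4 of 4. In HPBCD 5 of 5 striatal, 5 of 5 ependymal, 3 of 3 tested lymphocyte and 1 of 3 tested choroid plexus markers were higher. Of 5 endothelial markers 1 was higher and 1 lower. Over all genes, 10.5% were higher in vehicle and 30.3% in HPBCD. The ependymal Ccdc153 and Tmem212 held at most 3 counts in every HPBCD contralateral library, as did the lymphocyte markers Cd3d, Cd3e and Cd3g. Genes this low in 1 group can pass the filter only through the other, which fixes their direction in advance. Lymphocyte markers summed to 0.152 to 0.698 CPM in HPBCD contralateral and 3.55 to 6.97 in HPBCD peri-infarct. The part of these marker differences in the sterol gene results was not tested.

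**Figure D4:**
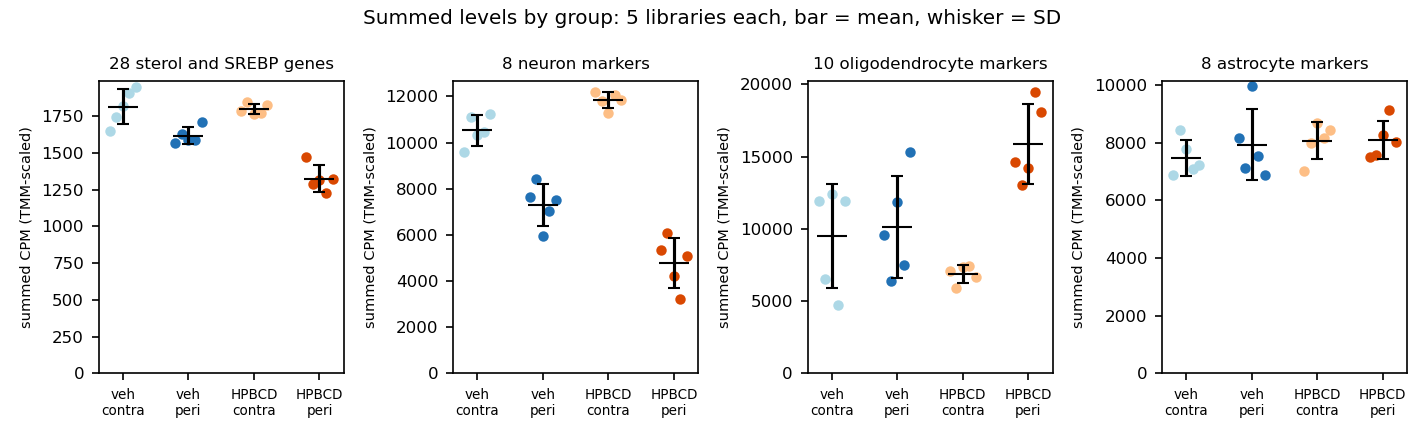
Summed CPM of the 28 sterol and SREBP genes and of 3 marker lists in the 4 groups, with 1 point per library, the mean as a bar and the SD as a whisker (n = 5). The sterol sum and the neuron sum are both lowest in HPBCD peri-infarct, the oligodendrocyte sum is highest there, and the astrocyte sums of the groups overlap.

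Whether the region difference itself differed between the treatments was tested with an interaction term over the 20 libraries. Of the 28 genes, 6 genes passed: Hmgcs1, Cyp51, Msmo1, Insig1 and Stard4 had a more negative region difference in HPBCD than in vehicle, and Srebf1 a more positive one. That is 5 of 28 (17.9%) lower and 1 of 28 (3.57%) higher, against 4.38% and 5.03% of 16758 genes. The median interaction was -0.31 for the 28 genes and 0.01 for all genes. For Srebf1 it was 0.80 ± 0.18 (adjusted p = 0.0185), for Insig1 -0.59 ± 0.14 (0.019), for Hmgcs1 -0.59 ± 0.13 (0.0167) and for Cyp51 -0.49 ± 0.10 (0.0166).

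Msmo1 (-0.42 ± 0.12, adjusted p = 0.0368) and Stard4 (-0.68 ± 0.21, adjusted p = 0.0472) passed with less margin, and 13 and 16 of the 20 fits that left out 1 library lost their calls. The number of calls varied with the contralateral libraries that stood apart: without either vehicle contralateral library 1 or HPBCD contralateral library 4, 4 of the 28 genes passed, beside 5.44% and 4.15% of all genes, and without both, none did. In the fit without both, chosen after seeing the data, Hmgcs1 (-0.54 ± 0.12), Cyp51 (-0.44 ± 0.10), Insig1 (-0.58 ± 0.14) and Srebf1 (0.805 ± 0.198) each had an edgeR adjusted p of 0.0539. An unadjusted p under 0.05 was found for 16 of the 28 genes, beside 3882 of 16946 genes. By adjusted p, 99 of 16946 genes passed in place of 1577 of 16758. Without HPBCD contralateral library 3 alone, 5 of the 28 genes passed, beside 8.02% of all genes. Markers of several cell types passed the same test over all 20 libraries. The interaction was lower for 5 of 8 neuron markers (median -0.65) and higher for 4 of 5 fibroblast and meningeal (2.62), 4 of 5 ependymal (1.97), 3 of 6 reactive astrocyte (1.18) and 3 of 10 oligodendrocyte markers (1.04). It was also higher for 1 of 8 astrocyte, 1 of 5 endothelial and 1 of 4 tested lymphocyte markers. Between regions in vehicle, none of the lymphocyte markers and 4 of 5 ependymal markers passed the filter on low counts. A marker that passed only through HPBCD peri-infarct had its direction fixed by the filter. Without both libraries, none of the markers passed with edgeR. An unadjusted p under 0.05 was then found for 8 of 8 neuron, 5 of 5 fibroblast and meningeal, 5 of 5 ependymal, 3 of 6 reactive astrocyte and 5 of 10 oligodendrocyte markers, beside 3882 of 16946 genes. Their part in the interaction of the sterol genes was not tested.

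The 2 region comparisons share no libraries, so their values can be set side by side. In 22 of the 28 genes the region difference was negative in both treatments and in 2, Srebf1 and Mbtps1, positive in both. It was farther from 0 in HPBCD in 25 of 28 genes (89.3%), and over the 15570 genes tested in both that share was 78.9%. The exceptions were Ebp, Insig2 and Scap.

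**Figure D5:**
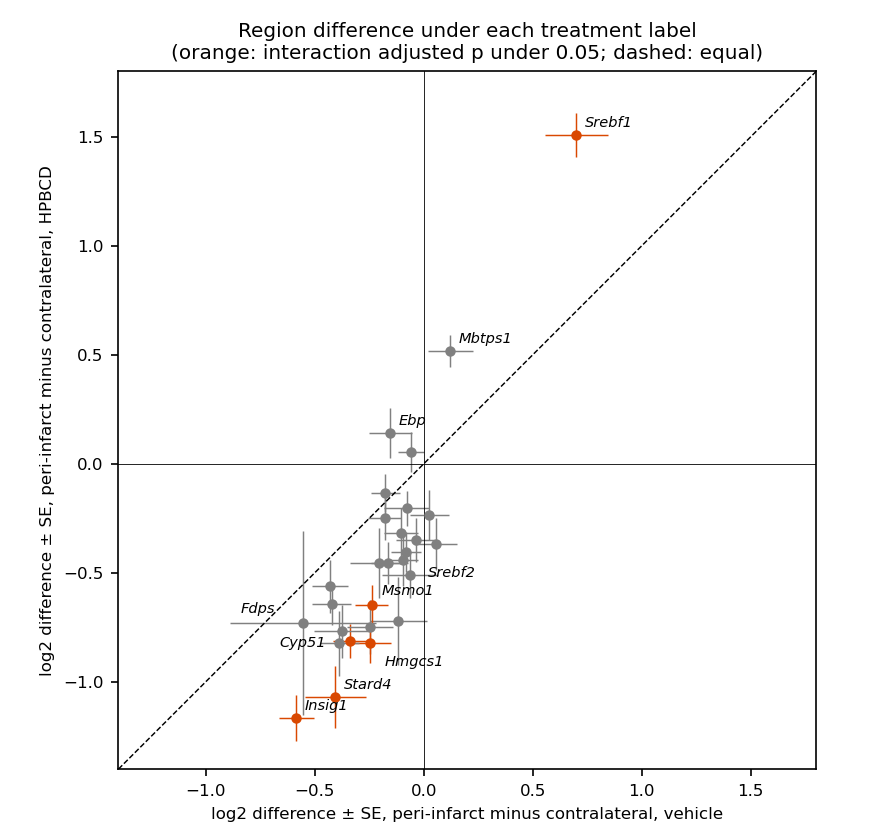
Log2 difference ± SE between peri-infarct and contralateral libraries of each of the 28 genes in vehicle (x axis) and in HPBCD (y axis), with the line of equal differences dashed. Orange points are the 6 genes whose interaction passed: Srebf1 lies above the line and Hmgcs1, Cyp51, Msmo1, Insig1 and Stard4 below it.

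The treatments were then compared within the peri-infarct region. In libraries labelled HPBCD, 15 of the 28 genes (53.6%) were lower than in those labelled vehicle and 2 (7.14%), Srebf1 and Mbtps1, were higher, while 9.00% of 16224 genes were lower and 12.4% higher. By role, 5 of 6 genes up to isopentenyl units, 2 of 3 from squalene to lanosterol, 5 of 8 from lanosterol to cholesterol, Srebf2, Insig1 and Stard4 were lower. None of the 3 isoprenoid branch genes passed. The median log2 difference was -0.34, beside 0.01 for all genes. Libraries did not overlap for 11 genes that were lower (6.47% of all genes) and 1 that was higher (6.90% of all genes).

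All 5 HPBCD peri-infarct libraries were below all 5 vehicle peri-infarct libraries for Hmgcs1, Cyp51, Msmo1, Insig1 and Srebf2. Msmo1 was at 76.0 to 87.5 CPM in vehicle peri-infarct and 53.1 to 71.6 CPM in HPBCD peri-infarct. Hmgcs1 was at 312, 331, 320, 330 and 371 CPM in vehicle peri-infarct, so it was 1.40-fold lower under the HPBCD label (-0.49 ± 0.09, adjusted p = 0.0128). Cyp51 (-0.47 ± 0.07) and Insig1 (-0.48 ± 0.08) had the same adjusted p. Fdft1, at 71.8, 86.1, 63.6, 81.7 and 94.8 CPM in vehicle peri-infarct, was 1.60-fold lower (-0.68 ± 0.15, adjusted p = 0.0169), with its lowest vehicle library just above the highest labelled HPBCD. Stard4, at 24.6, 29.0, 20.6, 29.0 and 27.4 CPM in vehicle peri-infarct, was 1.62-fold lower with 1 overlapping library on each side (-0.69 ± 0.15, adjusted p = 0.0157). Srebf2 (-0.49 ± 0.11, adjusted p = 0.0169), Mvd (-0.57 ± 0.12, adjusted p = 0.0152) and Sqle (-0.55 ± 0.13, adjusted p = 0.0201) were lower too.

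Srebf1 was 1.42-fold higher under the HPBCD label, and its libraries overlapped because vehicle library 3 reached 151 CPM (0.51 ± 0.14, adjusted p = 0.0323). Mbtps1 was at 93.0, 83.2, 99.1, 88.8 and 86.7 CPM in vehicle peri-infarct, all below the HPBCD libraries (0.24 ± 0.07, adjusted p = 0.0336). Several of the 17 calls depend on single libraries: from 8 to 21 of the 28 genes passed when 1 library was left out. It was 8 without HPBCD library 3 (5.03% of all genes) and 9 without HPBCD library 4 or vehicle library 1 (10.5% and 8.75%). It was 10 without vehicle library 2 (7.93%), and 11 without vehicle library 4 or HPBCD library 5 (14.2% and 12.9%). The count over all genes moved with them: 3471 of 16224 genes passed with all libraries, 823 of 16354 without HPBCD library 3 and 5339 of 16428 without HPBCD library 2. Over these 10 fits Idi1 lost its call in 8, Acat2, Nsdhl and Srebf1 in 7, Hsd17b7 and Mbtps1 in 6, Mvk in 5, Dhcr7 in 3, and Sqle and Srebf2 in 1. The others, Hmgcs1, Mvd, Fdft1, Cyp51, Msmo1, Insig1 and Stard4, passed in all 10. In this region 7 of 8 neuron markers were lower under the HPBCD label (median -0.64). Higher were 5 of 5 fibroblast and meningeal (median 2.61), 3 of 5 ependymal (1.43), 3 of 6 reactive astrocyte (1.01), 2 of 10 oligodendrocyte (0.60) and 2 of 8 astrocyte markers (0.18), and 1 each of 5 endothelial, 4 tested lymphocyte and 3 tested choroid plexus markers. No lymphocyte marker passed the filter between regions in vehicle, so those tested here rest largely on the HPBCD libraries. Gfap, of the reactive astrocyte list, differed by 1.03 ± 0.35 and did not pass (adjusted p = 0.0552). With exchanged labels the 15 lower sterol genes would be higher under HPBCD and the 2 higher ones lower, and the marker differences would turn with them.

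In the contralateral hemisphere no member of the pathway passed between the treatments, and 0% of 15469 genes did. With edgeR, 0 of 28 genes had an adjusted p under 0.05, 4 had an unadjusted p under 0.05, and DESeq2 and limma-voom also called 0. Over all genes, 1224 had an unadjusted p under 0.05, DESeq2 called 51 (37 higher and 14 lower) and limma-voom 0. The smallest adjusted p of the set was 0.526, that of Srebf1 (-0.29 ± 0.10). The median log2 difference was -0.04, and -0.01 for all genes. Intervals of 2 SE give a rough range for each gene and are not adjusted for the number of genes. Leaving Fdps aside, they reached no lower than -0.49 (Srebf1) and no higher than 0.51 (Idi1) on the log2 scale. Larger differences are not excluded by them. For Fdps the lower bound was -1.01.

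Genes around the pathway were taken from 4 further lists. Of 12 SREBP targets in fatty acid synthesis, 4 (33.3%) were higher and 1 (8.33%) lower between regions in vehicle, beside 10.5% and 9.70% of all genes. In HPBCD 5 (41.7%) were higher and 2 (16.7%) lower, beside 30.3% and 24.3% of all genes. Gpam, which starts triglyceride synthesis, was higher (1.11 ± 0.17 and 1.56 ± 0.22, adjusted p = 0.00265 and 7.77e-05), and Acss2, which makes acetyl-CoA from acetate, was lower (-0.48 ± 0.09 and -0.70 ± 0.09, adjusted p = 0.00584 and 4.07e-05). Scd2, a fatty acid desaturase and the most abundant of the list, differed by 0.41 ± 0.10 in HPBCD (adjusted p = 0.00462) and by 0.19 ± 0.11 in vehicle (adjusted p = 0.232), and its interaction of 0.20 ± 0.15 did not pass (adjusted p = 0.369). Between treatments in the peri-infarct region 1 of the 12 (8.33%) was higher and 1 lower, beside 12.4% and 9.00% of all genes.

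Of 13 genes that use isoprenoids, 3 (23.1%) were lower and none higher in vehicle, beside 9.70% and 10.5% of all genes, and 5 (38.5%) lower and 2 (15.4%) higher in HPBCD, beside 24.3% and 30.3%. Coq2, of ubiquinone synthesis, was lower in both (-0.25 ± 0.07 and -0.49 ± 0.08, adjusted p = 0.0308 and 0.000162), as was Icmt, which methylates prenylated proteins (-0.20 ± 0.06 and -0.35 ± 0.08, adjusted p = 0.0326 and 0.00188). Of 11 electron donors and turnover factors of the sterol enzymes, 3 (27.3%) were higher in vehicle and 6 (54.5%) in HPBCD, beside 10.5% and 30.3% of all genes, with none lower. Cyb5r3, cytochrome b5 reductase, was higher by 0.46 ± 0.08 and 1.18 ± 0.11 (adjusted p = 0.0036 and 2.69e-06), and Erlin2, which takes part in sterol-driven degradation, by 0.40 ± 0.08 and 0.82 ± 0.08 (adjusted p = 0.00801 and 3.85e-06). Both also had a higher interaction (0.71 ± 0.14 and 0.41 ± 0.11, adjusted p = 0.0144 and 0.0296). Without vehicle contralateral library 1 and HPBCD contralateral library 4 together, the adjusted p was 0.0491 for Cyb5r3 (0.69 ± 0.15) and 0.0734 for Erlin2 (0.41 ± 0.12), which no longer passed, nor did it without vehicle contralateral library 1 alone (adjusted p = 0.0541). March6, the most abundant of this list, did not pass in any of the 5 tests.

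Of 5 genes that hydroxylate or esterify cholesterol, 4 (80%) were higher and 1 (20%) lower in HPBCD peri-infarct than in HPBCD contralateral, beside 30.3% and 24.3% of all genes. In vehicle 2 of the 4 tested were higher and none lower. Between treatments in the contralateral hemisphere, too, only 4 of the 5 passed the filter on low counts. A gene that passed only through HPBCD peri-infarct, where it was high, had its direction fixed by the filter, so the 80% holds no test of it. Soat1, which stores cholesterol as esters, was higher in vehicle (0.56 ± 0.15, adjusted p = 0.0227) and in HPBCD (1.11 ± 0.15, adjusted p = 3.88e-05). Cyp27a1, the sterol 27-hydroxylase, was higher in HPBCD (1.22 ± 0.21, adjusted p = 0.00029) with -0.04 ± 0.35 in vehicle, and its interaction did not pass (1.25 ± 0.43, adjusted p = 0.0675). Cyp46a1, the neuronal cholesterol 24-hydroxylase, was lower in HPBCD (-0.51 ± 0.13, adjusted p = 0.00619). Under the HPBCD label in the peri-infarct region, Soat1 (0.60 ± 0.19, adjusted p = 0.0435) and Cyp27a1 (0.97 ± 0.18, adjusted p = 0.0128) were higher and Cyp46a1 (-0.59 ± 0.14, adjusted p = 0.0193) was lower. In the contralateral hemisphere none of the genes tested from the 4 lists passed between treatments.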

How the data were processed

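The authors deposited raw counts of read pairs per Ensembl gene for each library (paired-end TruSeq stranded mRNA reads). The submitters' processing notes name bcl2fastq 2.19, Trimmomatic 0.32, STAR 2.5.2b, HTSeq and DESeq2 on GRCm38. The annotation release and the strand setting are not given in the sources used here. Rows that name no gene stayed out of library sizes and tests (4.39 to 9.5% in no feature, 3.94 to 8.03% ambiguous, 16.6 to 24.3% not uniquely aligned). Symbols and exon lengths came from GENCODE M21, which matched 45229 of 46078 identifiers.

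Counts were fitted in R 4.3.3 with edgeR 4.0.16 (TMM factors, filterByExpr, quasi-likelihood F test), with Benjamini-Hochberg adjustment over all genes and a threshold of 0.05. Comparisons of 2 groups used their own 10 libraries and the interaction all 20. The SE is the absolute log2 difference over the square root of F. Printed CPM use TMM factors from all 20 libraries without the filter, whereas each fit took factors from its own filtered libraries. Differences of CPM and fitted differences can therefore deviate slightly. Statements on overlap of libraries hold for the printed CPM, and whether narrow gaps hold under the factors of a fit was not tested. All alternatives are in the closing section. The members and lists were chosen with earlier results of these data known. Every member could be named, and of each further list the 2 genes with the smallest adjusted p and the most abundant. No 2 tables were identical.

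The fits were tested on data simulated for the regions in vehicle, where edgeR made somewhat more false calls than its threshold allows and DESeq2 more than edgeR. The labels do not say that replicates came from separate animals. File names carry an identifier, different for each replicate of a group and shared by both regions of the same replicate number and treatment, which was taken here as the animal. If it is not, p-values measure only the spread between libraries, which may be technical. The deviations of these 10 pairs correlated with a mean r of 0.088 (-0.11 to 0.30), against -0.022 for other pairs, over 16758 genes, 4 pairs being over 0.1. The fit with the number as a block is an alternative.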

Additional observations from a re-analysis of the deposited data

Results flagged for a closer look

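For 6 genes the region difference differed between the treatments by the interaction term (edgeR, 20 libraries). The log2 interaction was 0.80 for Srebf1 (adjusted p = 0.0185), -0.68 for Stard4 (0.0472), -0.59 for Insig1 (0.019), -0.59 for Hmgcs1 (0.0167), -0.49 for Cyp51 (0.0166) and -0.42 for Msmo1 (0.0368).

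In 7 of the 112 sets of 5 libraries (28 genes in 4 groups), 1 library lay apart from the others by Dixon's criterion, which chance alone meets in about 1 in 20 sets. In HPBCD contralateral, Pmvk was at 78.7 CPM in library 1 (others 52.5 to 59.7), Sc5d at 47.1 CPM in library 1 (others 62.0 to 65.0) and Insig1 at 152 CPM in library 5 (others 106.5 to 113). In vehicle contralateral, Dhdds was at 51.6 CPM in library 4 (others 59.4 to 61.8) and Tm7sf2 at 7.96 CPM in library 1 (others 11.1 to 12.3). Idi1 was at 5.32 CPM in vehicle peri-infarct library 1 (others 6.03 to 6.30) and Ebp at 12.2 CPM in HPBCD peri-infarct library 2 (others 17.3 to 19.0).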

How the results depend on the processing

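No difference of the 28 genes that passed the threshold changed sign under any alternative. No median of the 28 genes moved by more than the SD, within groups, of the per-library medians. Leaving out 1 of 5 libraries can hardly move a median that far, so for those fits this limit shows little. Alternatives were DESeq2 1.42.0, limma-voom 3.58.1, other scaling factors, other count filters, 1 fit of all groups, a replicate block, at least 2-fold change, and leaving out each library. The number of genes called moved by over 1.5 times as follows, and the cause was not tested. Between regions in vehicle it was 7, 11 with voom (32.1% of all genes, against 20.2%) and 0 with a 2-fold minimum (793 of 15801 genes). Between regions in HPBCD it was 23, and 3 with a 2-fold minimum (3240 of 16047 genes). Between treatments in the peri-infarct region it was 17, and 0 with a 2-fold minimum (841 of 16224 genes). For the interaction it was 6, 11 with DESeq2 and 15 with voom (15.0% and 24.5% of all genes, against 9.41%), and 0 with a 2-fold minimum (591 of 16758 genes). It was 0 as well without replicate 1 of vehicle contralateral and replicate 4 of HPBCD contralateral together (0.584% of all genes). With the 2-fold minimum, the share of the 28 genes that passed was below that of all genes in each of these comparisons. Leaving out 1 library gave 6 to 9, 19 to 23, 8 to 21, 0 to 0 (contralateral treatments) and 4 to 10 genes in the order of these comparisons. The share of all genes that passed was then 12.5 to 24.4%, 49.7 to 57.5%, 5.03 to 32.5%, 0% and 3.12 to 18.4%. For the interaction the highest number came when library 3 of vehicle peri-infarct, or library 2 of the HPBCD one, was left out.

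With the replicate number as a block, 7, 21, 16, 0 and 9 genes passed for the regions in vehicle, regions in HPBCD, treatments in peri-infarct, treatments in contralateral and interaction. Of all genes, 19.3%, 55.2%, 27.0%, 0.00647% and 10.9% passed in the same order. The pairing made no other change than losing Msmo1 (0.0703) in the first, Lss (0.0765) and Dhcr7 (0.0521) in the second, and Acat2 (0.0768), Idi1 (0.0625) and Nsdhl (0.0624) in the third, and adding genes that had not passed. Between treatments the number is only a name. Without a filter on low counts, 12 genes passed between treatments in the peri-infarct region (9.78% of all genes, against 21.4%). Depth limits Fdps most (3 to 25 counts per library).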
